A study of Homo sapiens with 12 samples.

Results

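The subject is glucuronidation in B cells, followed through 8 genes that attach glucuronic acid or a related sugar, supply the cofactor UDP-glucuronate, draw on it for another purpose, or split glucuronides again. The members were the rows of both count tables whose gene symbol was *UGT2B17*, *UGT2B15*, *UGT8*, *UGP2*, *UGDH*, *SLC35D1*, *UXS1* or *GUSB*. All 8 were present in both tables, out of 23533 genes listed over the pair of tables, and the question put to them was whether the genes of cofactor supply changed along with *UGT2B17*. RNA was sequenced from 12 libraries, namely 3 biological replicates of each of 4 populations of the established human neoplastic B-cell lines MEC1 and JVM2. The 2B17 cells of both lines were stably transfected with the pcDNA6 plasmid carrying the *UGT2B17* coding sequence and were kept in blasticidin. JVM2-CTRL cells carried the empty plasmid and were kept in blasticidin too, whereas MEC1-CTRL cells carried an shRNA knock-down of *UGT2B17* and were kept in puromycin. In MEC1, therefore, the plasmid, the knock-down and the antibiotic changed together and cannot be told apart. Each population is a single antibiotic-selected culture, so the replicates measure the spread within a population and not that between independently made populations. The labelled cell type was checked first. The B-cell surface gene *MS4A1* stood at 911 ± 17.04 CPM (counts of a gene scaled to a common library size) in MEC1-CTRL, 609 ± 19.4 in MEC1-2B17, 511 ± 33.2 in JVM2-CTRL and 674 ± 24.9 in JVM2-2B17 (SD, n = 3). The mean level of *PAX5*, a transcription factor of B cells, lay between 215 CPM in JVM2-2B17 and 350 CPM in MEC1-CTRL. The B-cell genes did not move together between CTRL and 2B17 cells. In MEC1, *MS4A1* and *PAX5* fell by 0.58 and 0.17 on the log2 scale, and *CD79A* and *CD22* rose by 0.28 and 0.36 (highest adjusted *P* = 5.9e-04). In JVM2, *MS4A1* and *CD22* rose by 0.40 and 0.38 and *CD79A* fell by 0.39 (highest adjusted *P* = 0.029). Their part in the changes described here was not tested. T-cell markers summed to at most 0.639 CPM in MEC1, and none was listed in the JVM2 table. Libraries held 31762649 to 37744991 counts in MEC1 and 8809179 to 11231330 counts in JVM2, so the members were measured with more precision in MEC1. A library stood apart from the others of its population in 2 cases. The second JVM2-2B17 replicate differed from the others by a mean chi-square per gene of 8.35 and 8.58, against 2.24 between those, and the third MEC1-CTRL replicate by 8.41 and 6.77, against 2.5.

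Glucuronidation is carried out by UDP-glucuronosyltransferases of the endoplasmic reticulum membrane, which move glucuronic acid from UDP-glucuronate onto steroids, lipid mediators, bile acids and drugs and so make them soluble and usually inactive. The cofactor is made in the cytosol, where UGP2 joins glucose-1-phosphate to UTP and UGDH oxidizes the resulting UDP-glucose to UDP-glucuronate. It must then be carried into the endoplasmic reticulum, by SLC35D1 among others, while UXS1 removes part of it by decarboxylation to UDP-xylose, and GUSB, the lysosomal beta-glucuronidase, releases glucuronic acid from conjugates and glycans. Several of these steps also serve the assembly of proteoglycans in every cell, and their genes are not specific to glucuronidation.

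Between CTRL and 2B17 cells, 6 of the 8 genes changed in MEC1, and in JVM2 1 of the 7 that could be tested. A gene was called changed when its *P*-value, from edgeR's quasi-likelihood test with Benjamini-Hochberg adjustment over all genes tested in the line, was below 0.05. Besides *UGT2B17*, its paralog *UGT2B15*, *UGDH*, *SLC35D1* and *GUSB* rose in MEC1 and *UGT8* fell. In JVM2, *UGT2B17* rose, and no gene of cofactor synthesis, transport or competing use passed the threshold. These counts stand beside a background of 41.7% of all genes tested in MEC1 (20% higher and 21.6% lower) and 29.3% in JVM2 (14.1% higher and 15.3% lower), and with 8 genes no statement on the group as such was made from them. The median log2 fold change of the genes was 0.21 in MEC1 and -0.0017 in JVM2, against medians over all genes tested of 0.0026 and 0.00012. Fold changes are 2B17 over CTRL throughout, and CPM were computed from the TMM-scaled library sizes within each line.

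**Figure D1:**
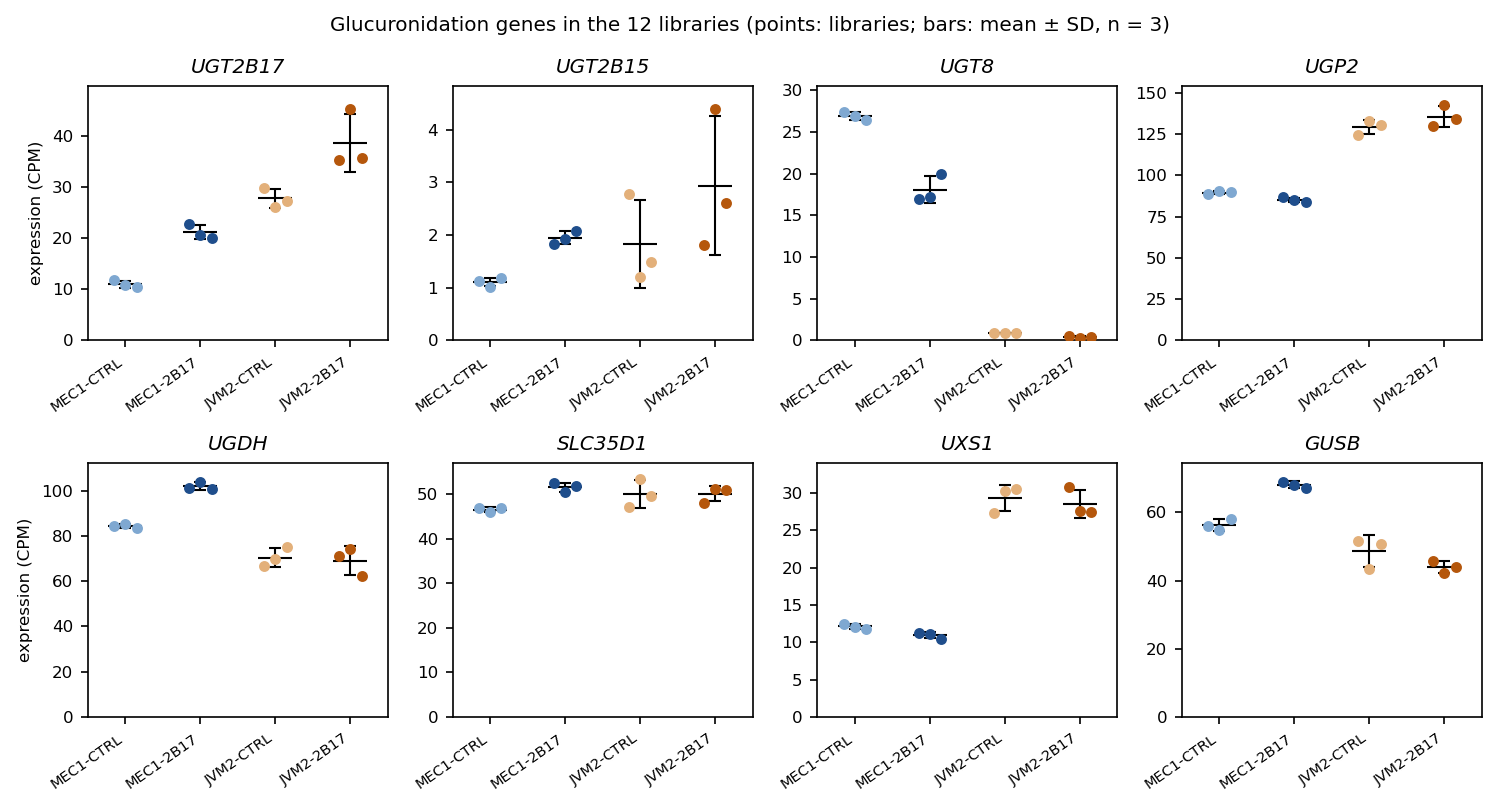
Expression in CPM (vertical axes, linear from 0) of the 8 genes in the 4 populations, with points for the libraries and bars for the mean ± SD (n = 3). The MEC1-2B17 points of *UGT2B17*, *UGT2B15*, *UGDH*, *SLC35D1* and *GUSB* all lie above the MEC1-CTRL points, whereas in JVM2 the points of *UGDH*, *SLC35D1*, *UXS1* and *GUSB* overlap.

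*UGT2B17* (ENSG00000197888, chr4:68537173-68576413 of GRCh38, minus strand) encodes a transferase that glucuronidates androgens and other lipids. The MEC1-CTRL replicates stood at 11.7, 10.8 and 10.4 CPM and those of MEC1-2B17 at 22.7, 20.6 and 20.1 CPM. The JVM2-CTRL replicates stood at 29.7, 26.2 and 27.3 CPM and those of JVM2-2B17 at 35.2, 45.2 and 35.6 CPM. The 2B17 libraries lay above the CTRL libraries in each line, as the labels call for. Expression was 1.92-fold higher in MEC1-2B17 (95% interval of the log2 fold change 0.80 to 1.09, adjusted *P* = 2.0e-09). It was 1.39-fold higher in JVM2-2B17 (0.25 to 0.71, adjusted *P* = 0.0048). The highest JVM2 value was that of the replicate that stood apart, and without it the log2 fold change was 0.35 in place of 0.48 (adjusted *P* = 0.0014). Without the third MEC1-CTRL replicate the MEC1 value was 0.90 in place of 0.94. An exact two-sided permutation test of 3 libraries against 3 cannot go below *P* = 0.1, the value it gave in both lines. Across the populations the order was JVM2-2B17, JVM2-CTRL, MEC1-2B17 and MEC1-CTRL, with no overlap between neighbours, so the JVM2 cells with the empty plasmid had a higher CPM of *UGT2B17* than the MEC1 cells with the *UGT2B17* plasmid. The lines were scaled separately, and reads from the plasmid and from the cells' own gene were counted together. In bulk libraries, a smaller share of expressing cells and less RNA per cell cannot be told apart.

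*UGT2B15* (ENSG00000196620, chr4:68646597-68670652, minus strand) encodes a close relative that also conjugates steroids. It was read at 43, 35 and 39 counts in MEC1-CTRL and at 62, 63 and 66 counts in MEC1-2B17. This was 1.13, 1.02 and 1.17 CPM against 1.83, 1.93 and 2.08 CPM, without overlap, and the log2 fold change was 0.81 (SE 0.165, adjusted *P* = 5.7e-04). In JVM2 it had 28, 13 and 14 counts in CTRL and 20, 39 and 23 counts in 2B17 cells, and these overlapped. The log2 fold change of 0.65 there did not pass the threshold (95% interval -0.16 to 1.46, adjusted *P* = 0.22), and it ranged from 0.25 to 1.09 as libraries were left out.

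These few *UGT2B15* counts must be read beside the sequence of *UGT2B17*. The coding sequences, taken from the GENCODE v44 transcripts on GRCh38, are 1593 bases each and differ at 55 positions (96.55% identity). Cut into overlapping stretches of 50 bases, the *UGT2B17* coding sequence has 36.08% of them in common with *UGT2B15*, the 5′ UTR 0 of 387 and the 3′ UTR 0 of 403. The plasmid carries only the coding sequence, which is thus the part that both genes share. The longest identical run covers 199 bases, positions 866 to 1064 counted from the start of the coding sequence, and a read within it matches both genes. The most divergent 60 bases, positions 242 to 301, hold 9 differences, shown in capitals, and reads there can be assigned. The sequences are given 5′ to 3′ in the sense of the transcript:
UGT2B17 and UGT2B15, positions 866 to 1064: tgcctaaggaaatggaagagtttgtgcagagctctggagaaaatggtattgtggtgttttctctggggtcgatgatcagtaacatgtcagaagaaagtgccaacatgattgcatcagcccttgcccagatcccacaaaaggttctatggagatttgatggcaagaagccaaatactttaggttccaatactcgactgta
UGT2B17, positions 242 to 301: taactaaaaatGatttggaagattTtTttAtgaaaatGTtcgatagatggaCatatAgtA
UGT2B15, positions 242 to 301: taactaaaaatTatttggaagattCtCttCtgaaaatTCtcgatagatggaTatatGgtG

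**Figure D2:**
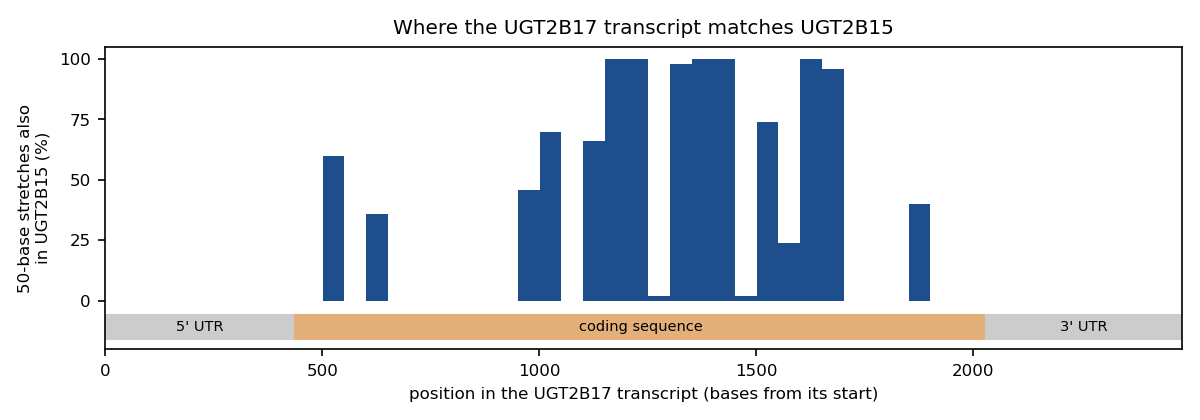
Share of the 50-base stretches (vertical axis, percent) starting in each 50-base bin of the *UGT2B17* transcript (horizontal axis, bases from its start) that also occur in the *UGT2B15* transcript, with the annotated 5′ UTR, coding sequence and 3′ UTR drawn below. Every bin above 0 lies in the coding sequence.

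*UGT2B15* counts were 8.09% to 11.3% of those of *UGT2B17* in the MEC1 libraries and 4.63% to 9.7% in the JVM2 libraries. Its log2 fold change minus that of *UGT2B17* was -0.13 (SE 0.179) in MEC1 and 0.17 (SE 0.387) in JVM2. With the counts of both genes summed, the rise on the log2 scale came to 0.93 (MEC1) and 0.49 (JVM2), with adjusted *P* of 1.0e-09 and 0.0068. The sum is the same however the counted reads were divided between the genes. With *UGT2B15* at no more than 11.3% of the *UGT2B17* counts, it could hardly differ from the value of *UGT2B17* alone. Any reads matching both genes that were left uncounted are not in this sum. How far the *UGT2B15* counts are reads of *UGT2B17* was not tested. The other 6 genes shared at most 1.77% of their 50-base stretches with any other gene, the highest share being that of *GUSB*.

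*UGT8* (ENSG00000174607, chr4:114598770-114678225, plus strand) belongs to the same superfamily but moves galactose from UDP-galactose onto ceramide, so it does not use the glucuronate cofactor. It had 27.4, 26.9 and 26.4 CPM in MEC1-CTRL and 16.99, 17.2 and 19.9 CPM in MEC1-2B17, without overlap. The fall was 0.58 on the log2 scale, written as a log2 fold change of -0.58 (95% interval -0.71 to -0.45, adjusted *P* = 3.4e-07). In JVM2 the gene was barely read, at 9, 9 and 8 counts in CTRL and 6, 3 and 4 counts in 2B17 cells, and it did not pass the filter on low counts. With no filter its log2 fold change in JVM2 was -0.91 (SE 0.419, adjusted *P* = 0.147). A difference in its change between the lines was not detectable at this depth (0.34, SE 0.427, adjusted *P* = 0.63).

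Of 19 other UDP-glycosyltransferases looked for, 1 was listed in each table and none had enough counts to be tested. *UGT3A2* was read at 5, 0 and 3 counts in MEC1-CTRL and at 2, 0 and 2 in MEC1-2B17. *UGT1A6* was read at 4, 2 and 5 counts in JVM2-CTRL and at 0 in each JVM2-2B17 library, where a count of 0 allows up to 3. Among the UGT1 and UGT2 family genes listed, *UGT2B17* had the highest counts in each line.

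The cofactor begins with *UGP2* (ENSG00000169764, chr2:63840952-63891562, plus strand), the UDP-glucose pyrophosphorylase that also feeds glycogen. It had 88.7, 90.3 and 89.7 CPM in MEC1-CTRL and 86.6, 84.9 and 83.9 CPM in MEC1-2B17. The MEC1-2B17 libraries lay below the others without overlap, which 50.1% of all genes tested in MEC1 showed in either direction, and the log2 fold change of -0.07 did not pass the threshold (95% interval -0.14 to -0.0021, adjusted *P* = 0.093). In JVM2, where 45.2% of genes did not overlap, *UGP2* did, with 124.4, 132.9 and 130.7 CPM in CTRL and 130.1, 142.5 and 134.4 CPM in 2B17 cells. The log2 fold change there was 0.07 (95% interval -0.06 to 0.20, adjusted *P* = 0.43).

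*UGDH* (ENSG00000109814, chr4:39498755-39528311, minus strand) encodes UDP-glucose dehydrogenase, which makes the cofactor itself. It stood at 84.2, 85.3 and 83.3 CPM in MEC1-CTRL and at 101.2, 104.0 and 100.7 CPM in MEC1-2B17. The JVM2-CTRL replicates stood at 66.6, 69.7 and 75.01 CPM and those of JVM2-2B17 at 70.9, 74.3 and 62.1 CPM. The MEC1 populations were set apart by several times the spread within them, and the JVM2 populations overlapped fully. Expression was 1.21-fold higher in MEC1-2B17 (95% interval of the log2 fold change 0.20 to 0.34, adjusted *P* = 2.0e-06). In JVM2 the log2 fold change was -0.03, with an interval of -0.20 to 0.14 (adjusted *P* = 0.83). The difference between the lines was tested in a single fit of all 12 libraries and was 0.29 (SE 0.082, adjusted *P* = 0.0090).

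The antisense gene *UGDH-AS1* overlaps 513 exon bases of *UGDH* on the opposite strand, 12.75% of its exon sequence. Whether the counting used strand is not given in the sources used here, so reads in the overlap cannot be told apart. In MEC1 *UGDH-AS1* itself rose from 14.6 ± 0.672 to 16.6 ± 1.20 CPM (SD, n = 3), by 0.18 on the log2 scale with an adjusted *P* of 0.035. In JVM2 it fell from 12.2 ± 1.68 to 8.28 ± 0.791 CPM, a change of -0.56 with an adjusted *P* of 0.0094, while *UGDH* did not pass the threshold.

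*SLC35D1* (ENSG00000116704, chr1:66999350-67054148, minus strand) encodes a carrier that brings UDP-glucuronate into the endoplasmic reticulum. It had 46.8, 45.9 and 47.0 CPM in MEC1-CTRL and 52.5, 50.4 and 51.8 CPM in MEC1-2B17, without overlap. This 1.11-fold rise (95% interval of the log2 fold change 0.06 to 0.24, adjusted *P* = 0.0080) was the smallest among the genes called in MEC1. In JVM2 the CTRL libraries at 47.1, 53.5 and 49.6 CPM enclosed the 2B17 libraries at 48.1, 51.1 and 51.1 CPM. The log2 fold change of -0.0017 there had an interval of -0.16 to 0.16, which takes in the MEC1 value of 0.15, and the difference between the lines did not pass the threshold (0.14, SE 0.078, adjusted *P* = 0.17).

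*UXS1* (ENSG00000115652, chr2:106093308-106194301, minus strand), whose enzyme turns UDP-glucuronate into UDP-xylose, had 12.4, 12.1 and 11.8 CPM in MEC1-CTRL and 11.2, 11.05 and 10.5 CPM in MEC1-2B17. The 2B17 libraries lay below the CTRL libraries without overlap, but the log2 fold change of -0.15 did not pass the threshold (95% interval -0.29 to -0.0049, adjusted *P* = 0.092). In JVM2 the populations overlapped, at 27.4, 30.3 and 30.5 CPM in CTRL and 30.8, 27.5 and 27.4 CPM in 2B17 cells. The log2 fold change there was -0.04 (95% interval -0.22 to 0.15, adjusted *P* = 0.79).

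*GUSB* (ENSG00000169919, chr7:65960684-65982215, minus strand) acts against glucuronidation by hydrolysing glucuronides. It stood at 56.1, 54.8 and 58.1 CPM in MEC1-CTRL and at 69.0, 68.2 and 67.1 CPM in MEC1-2B17. The JVM2-CTRL replicates stood at 51.7, 43.3 and 50.9 CPM and those of JVM2-2B17 at 45.8, 42.3 and 44.05 CPM. The MEC1-2B17 libraries were all above the MEC1-CTRL libraries, and in JVM2 the populations overlapped through the second CTRL replicate. Expression was 1.21-fold higher in MEC1-2B17 (95% interval of the log2 fold change 0.19 to 0.36, adjusted *P* = 1.7e-05). In JVM2 the log2 fold change was -0.14 (-0.32 to 0.04, adjusted *P* = 0.23). The MEC1 change exceeded that in JVM2 by 0.41 (SE 0.087, adjusted *P* = 0.0012).

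**Figure D3:**
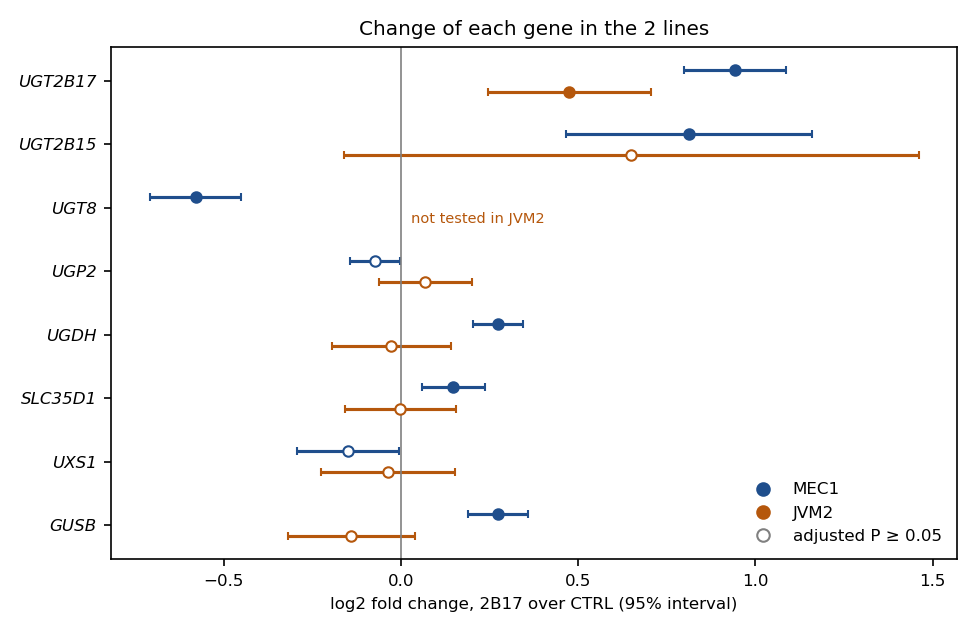
Log2 fold change of 2B17 over CTRL (horizontal axis) with its 95% interval for each gene in MEC1 and JVM2, with open symbols where the adjusted *P* was not below 0.05. The MEC1 values of *UGDH* and *GUSB* (0.27 each) lie outside the JVM2 intervals, which end at 0.14 and 0.04.

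Set against *UGT2B17*, the changes of the supply genes in MEC1 were small. *UGT2B17* rose 1.92-fold, *UGDH* 1.21-fold and *SLC35D1* 1.11-fold, and *UGP2* was 0.951-fold and *UXS1* 0.902-fold of its level without passing the threshold. In JVM2 the intervals allowed the log2 level of *UGDH* to move by no more than -0.20 to 0.14 and that of *UGP2* by -0.06 to 0.20, beside a *UGT2B17* change of 0.48. The difference between the lines passed the threshold for 3 of the 8 genes, *UGT2B17* (0.46, SE 0.127, adjusted *P* = 0.0082), *UGDH* and *GUSB*, against 32.2% of all genes in that fit. It did not for *UGT2B15* (0.15, SE 0.394), *UGP2* (-0.15, SE 0.068) or *UXS1* (-0.12, SE 0.102). For *UGT2B17*, *UGDH* and *GUSB* the change was more positive in MEC1, the line whose control carried the knock-down and was kept in another antibiotic.

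The order of levels over the 4 populations was not the same for all genes, with the lines scaled separately. *UGDH* and *GUSB* were highest in MEC1-2B17, then MEC1-CTRL, then in the overlapping JVM2 populations. *UGP2* and *UXS1* ran the other way, with the overlapping JVM2 populations on top, then MEC1-CTRL, then MEC1-2B17. *UXS1* differed more between the lines than *UGDH*, *GUSB* or *UGP2*, at 12.1 ± 0.288 CPM in MEC1-CTRL against 29.4 ± 1.76 CPM in JVM2-CTRL. Of the 8 genes *UGT8* differed most, at 26.9 ± 0.492 CPM in MEC1-CTRL against 0.860 ± 0.0306 CPM in JVM2-CTRL. *SLC35D1* differed least, with MEC1-CTRL below 3 populations that overlapped. *UGT8* was highest in MEC1-CTRL and lowest in JVM2-2B17 with no neighbours overlapping, and *UGT2B15* was lowest in MEC1-CTRL with the other populations overlapping.

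Levels of different genes were compared per kilobase of annotated exon. In MEC1-CTRL, *UGDH* was the highest at 20.9 ± 0.246 CPM per kilobase, followed by *GUSB* at 14.5 ± 0.431 and *UGP2* at 13.2 ± 0.120, and *UGT2B17* stood at 4.27 ± 0.268 (SD, n = 3). In MEC1-2B17, *UGDH* stood at 25.3 ± 0.444 CPM per kilobase and *UGT2B17* at 8.21 ± 0.533. In JVM2-2B17, *UGT2B17* reached 15.03 ± 2.20 CPM per kilobase, and *UGDH*, at 17.2 ± 1.56, lay above it in each of the 3 libraries. *UGT2B15* was the lowest in MEC1 at 0.519 ± 0.0382 CPM per kilobase in the CTRL cells, and *UGT8* was the lowest in JVM2 at 0.196 ± 0.00698. With the longest coding transcript as the length instead, *UGP2* came first in all 4 populations (39.6 CPM per kilobase in MEC1-2B17 to 63.1 in JVM2-2B17), because its annotated exons sum to 6791 bases and its longest coding transcript to 2150.

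**Figure D4:**
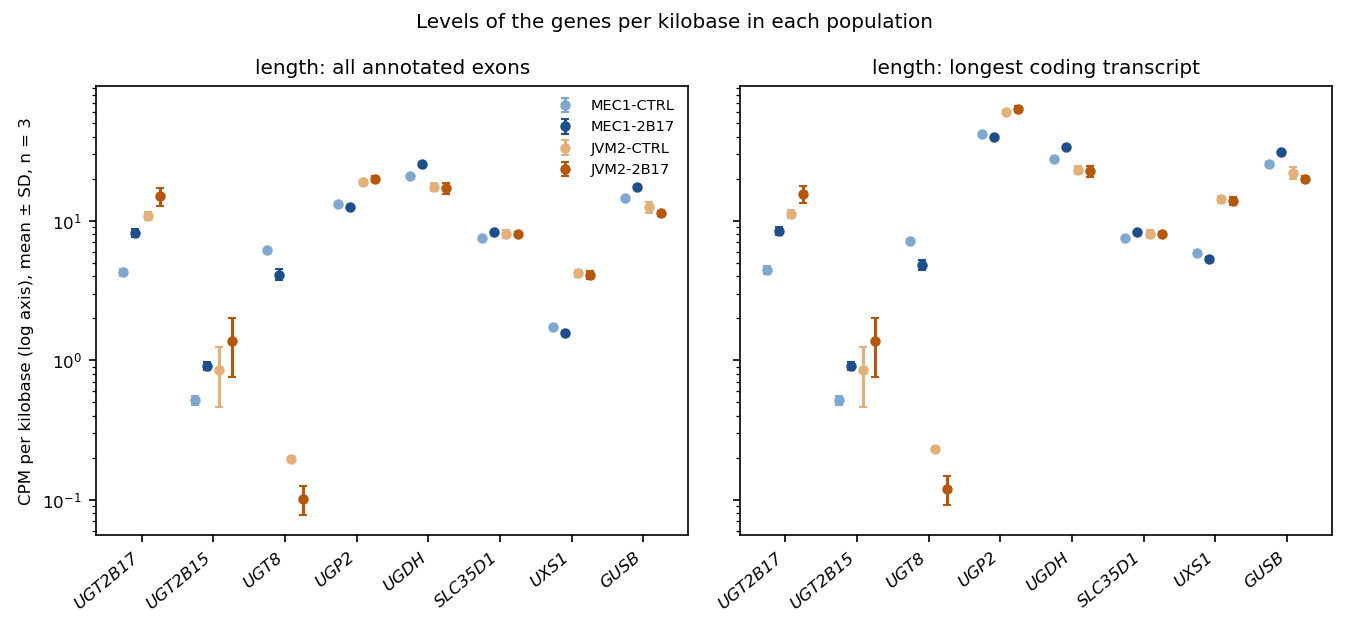
Mean level of each gene in CPM per kilobase (vertical axis, logarithmic, ± SD, n = 3) in the 4 populations, with the length taken from all annotated exons on the left and from the longest coding transcript on the right. *UGP2* and *UXS1* move up on the right, whereas *UGT2B17*, *UGT2B15* and *SLC35D1* stay nearly in place.

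The level of *UGDH* relative to *UGT2B17*, both per kilobase of exon, was 4.58, 5.06 and 5.11 in the MEC1-CTRL libraries in ascending order and 2.85, 3.21 and 3.23 in those of MEC1-2B17. It was 1.43, 1.70 and 1.75 in JVM2-CTRL and 1.05, 1.12 and 1.29 in JVM2-2B17. The ratio was thus lower in the 2B17 cells of each line, without overlap. *UGDH* rose less than *UGT2B17* in MEC1 and did not pass the threshold in JVM2. *UGT2B17* is the gene that defines the populations, so a gene that rose less than it gives a lower ratio by construction. The ratio describes levels and is no test of cofactor supply. The means fell from 4.92 ± 0.293 to 3.10 ± 0.211 and from 1.63 ± 0.173 to 1.15 ± 0.123 (SD, n = 3), as ratios of RNA levels and not of enzyme or cofactor amounts.

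The pattern of *UGT2B17* over the 12 libraries was compared with that of 10940 genes by the root mean square difference of log2 CPM, each centred on the mean of its line. The nearest genes were *DOK4* (0.0927), *ITM2A* (0.123), *SYNE2* (0.128), *SMARCA2* (0.131) and *XXYLT1-AS2* (0.134). Their log2 fold changes ranged from 0.70 for *ITM2A* to 1.11 for *DOK4* in MEC1. In JVM2 they ranged from 0.28 for *SMARCA2* to 0.58 for *XXYLT1-AS2*. These genes were picked for the smallest difference, so fold changes near those of *UGT2B17* follow from the selection. No other glucuronidation gene was among these nearest genes. *UGDH* was ranked 915 at 0.312, *GUSB* 1879 at 0.341, *SLC35D1* 2008 at 0.345, *UGP2* 4946 at 0.397 and *UXS1* 7576 at 0.445. The measure depends on the size of a change, so a gene that moved with *UGT2B17* by less also ranks further from it. It thus does not show whether these genes moved together with *UGT2B17*.

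The wider pathway was described by 85 further genes in 7 lists, of which 51 could be tested in MEC1 and 47 in JVM2. In MEC1, 15 were higher, 17 lower and 19 did not pass the threshold (62.7% called, against 41.7% of all genes tested, median log2 fold change -0.00097). In JVM2, 4 were higher, 14 lower and 29 did not pass (38.3% called, against 29.3% of all genes tested, median -0.15). No test of the lists was made. Glycosaminoglycan synthesis, the other large consumer of UDP-glucuronate and UDP-xylose, had the most members tested and the most called in both lines.

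**Figure D5:**
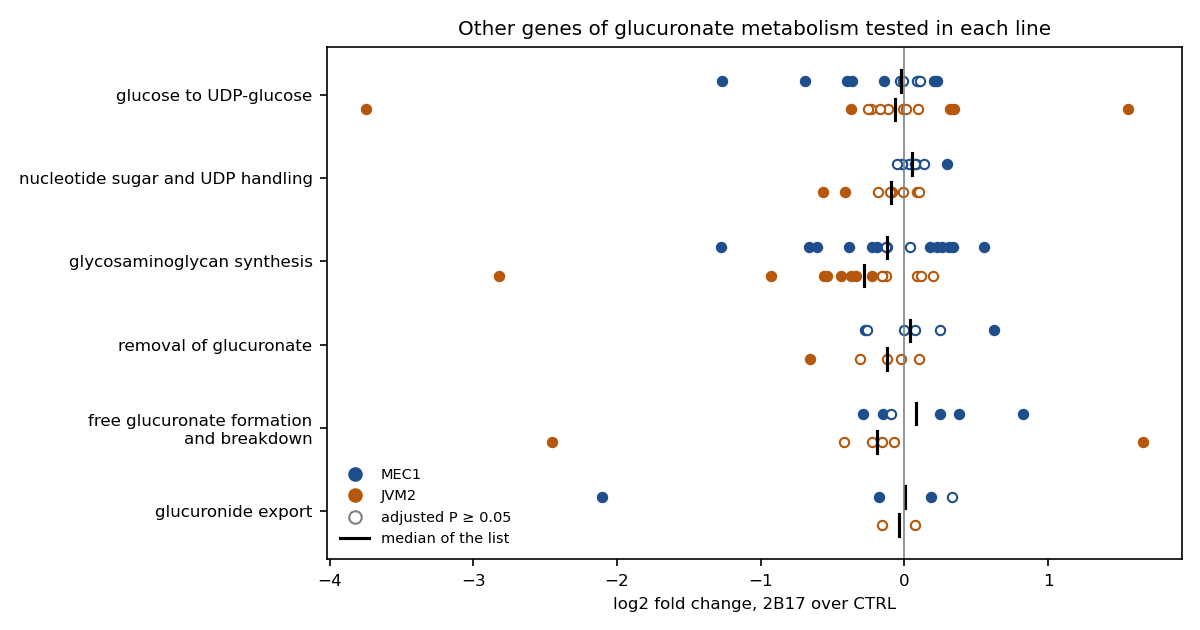
Log2 fold change of 2B17 over CTRL (horizontal axis) of each tested gene of the lists around UDP-glucuronate, by list and line, with open symbols where the adjusted *P* was not below 0.05 and bars at the list medians. The medians of glycosaminoglycan synthesis lie at -0.12 in MEC1 and -0.28 in JVM2, and the widest spread is that of single genes in JVM2.

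Of the glycosaminoglycan genes, 6 were higher and 7 lower of 15 tested in MEC1, and 8 were lower of 14 in JVM2, where none was higher. Over all genes, 20% were higher and 21.6% lower in MEC1 and 14.1% higher and 15.3% lower in JVM2, which is the background for the lists that follow too. *XYLT1*, whose enzyme starts the chains by adding xylose to the core protein, had 63.9, 61.3 and 59.4 CPM in MEC1-CTRL and 39.8, 41.3 and 39.9 CPM in MEC1-2B17 (log2 fold change -0.61, adjusted *P* = 1.8e-09). In JVM2 it had 62.8, 65.7 and 71.3 CPM in CTRL and 10.6, 6.86 and 10.6 CPM in 2B17 cells (log2 fold change -2.82, adjusted *P* = 7.2e-09). The CTRL cells of the lines thus stood at a similar level and both 2B17 populations below it. *DSE*, a chondroitin-glucuronate epimerase, also fell in both lines, by 0.66 and 0.56 on the log2 scale (adjusted *P* = 4.9e-06 and 2.1e-05). *FAM20B*, the kinase that phosphorylates the linker xylose, fell by 0.12 and 0.37 (adjusted *P* = 0.015 and 0.0020).

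*EXT1*, a polymerase of heparan sulfate, and the chondroitin polymerizing factors *CHPF* and *CHPF2* moved in opposite directions. *EXT1* rose from 15.01, 15.3 and 15.1 CPM to 20.1, 18.5 and 18.7 CPM in MEC1 and fell from 32.4, 32.6 and 34.96 CPM to 19.5, 16.9 and 15.8 CPM in JVM2. On the log2 scale these were 0.34 and -0.93, with adjusted *P* of 1.2e-04 and 1.5e-05. *CHPF* changed by 0.55 and -0.54 and *CHPF2* by 0.26 and -0.44. *CSGALNACT1*, an initiator of chondroitin chains, fell by 1.27 in MEC1, from 1.42, 1.71 and 1.63 CPM to 0.681, 0.704 and 0.567 CPM (adjusted *P* = 4.1e-05), and was not listed in the JVM2 table.

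Among 15 genes from glucose to UDP-glucose and its users, 3 were higher and 5 lower of 12 tested in MEC1, and 3 higher and 2 lower of 12 in JVM2. *HK1*, a hexokinase, fell in MEC1 from 48.7, 50.7 and 53.4 CPM to 33.4, 30.0 and 31.1 CPM (log2 fold change -0.69, adjusted *P* = 3.0e-09). The phosphoglucomutase family gene *PGM5*, whose product is known as a structural protein without much enzyme activity, fell in JVM2 from 19.2, 21.2 and 24.5 CPM to 1.54, 1.69 and 1.58 CPM (log2 fold change -3.75, adjusted *P* = 7.5e-09). *PGM2L1*, a glucose-1,6-bisphosphate synthase, rose there from 2.09, 2.23 and 2.12 CPM to 6.06, 8.32 and 4.74 CPM (log2 fold change 1.56, adjusted *P* = 3.3e-04). *PGM1*, the main phosphoglucomutase ahead of UGP2, changed by -0.14 in MEC1 (adjusted *P* = 0.0051) and had a log2 fold change of -0.0092 in JVM2, where the adjusted *P* was 0.93.

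The users of UDP-glucose and the carriers also differed by line. *UGGT1*, the glucosyltransferase of glycoprotein folding control, changed by 0.23 in MEC1 but by -0.37 in JVM2, with adjusted *P* of 3.5e-05 and 4.5e-04. *UGGT2*, its relative, fell by 1.27 in MEC1, from 22.7, 23.3 and 21.0 CPM to 9.20, 8.91 and 9.71 CPM (adjusted *P* = 2.1e-11), and was not listed in the JVM2 table. *UGCG*, which glucosylates ceramide, fell by 0.40 in MEC1 and rose by 0.31 in JVM2 (adjusted *P* = 1.3e-08 and 0.0067). Of 8 genes of nucleotide sugar transport and UDP removal tested in each line, *SLC35B1*, a carrier of the endoplasmic reticulum membrane, alone passed the threshold in both, at 0.30 in MEC1 and -0.57 in JVM2 (adjusted *P* = 1.1e-05 and 2.6e-04).

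Among the genes that form or break down free glucuronate, 3 were higher and 2 lower of 6 tested in MEC1, and 1 was higher and 1 lower of 6 in JVM2. *CRYL1*, the gulonate dehydrogenase, rose in JVM2 from 5.57, 4.94 and 5.19 CPM to 16.5, 16.6 and 16.6 CPM (log2 fold change 1.66, adjusted *P* = 4.8e-07), and by 0.25 in MEC1 (adjusted *P* = 0.046). *MIOX*, which makes glucuronate from inositol, was low throughout, at 0.315, 0.319 and 0.361 CPM in MEC1-CTRL against 0.562, 0.551 and 0.662 CPM in MEC1-2B17 (log2 fold change 0.83, adjusted *P* = 0.022). In JVM2 it stood at 3.08, 1.86 and 1.48 CPM in CTRL against 0.181, 0.787 and 0.226 CPM in 2B17 cells (log2 fold change -2.45, adjusted *P* = 0.0025). Of the genes for the breakdown of glucuronides and glycans, 1 was higher and 1 lower of 6 tested in MEC1, and 1 was lower of 5 in JVM2. The gene higher in MEC1 was *IDUA*, a lysosomal iduronidase, which rose by 0.62 (adjusted *P* = 0.016) and did not pass the filter on low counts in JVM2. Export of glucuronides had 1 gene higher and 2 lower of 4 tested in MEC1 and none called of 2 in JVM2.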

How the data were processed

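Total RNA libraries depleted of ribosomal RNA were sequenced with paired ends at 2 sites, and the site of each sample is not given in the sources used here. Per the submitters' processing notes, reads were trimmed with Trimmomatic, aligned to hg38 with TopHat2 2.0.14 and counted with HTSeq. The strand setting and the annotation release are not given in the sources used here. The authors deposited raw counts per Ensembl gene, a table for each line, with 22441 genes in MEC1 and 17144 in JVM2 and at least 10 counts in total per gene. The tables' fold changes, *P*-values and adjusted *P*-values of the authors' own edgeR and DESeq2 comparisons, and 12 columns of rounded normalized values, were not used.

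Each line was fitted on its counts with edgeR 4.0.16 in R 4.3.3 (TMM, quasi-likelihood F-test, and the filterByExpr filter at minima of 10 counts and 15 in total), over 16581 genes in MEC1 and 13021 in JVM2. Groups came from the sample titles, 3 replicates each. The difference between the lines was the interaction of line and arm over 15130 genes. *P*-values over all genes tested were adjusted by the Benjamini-Hochberg method, with a threshold of 0.05, and SE came from the F statistic. Single values were compared with the exact permutation test (SciPy 1.17.1, Python 3.11.15). On simulated data with 2-fold changes, 180 of 197 changed genes were recovered in MEC1 (7 false calls among 16520 genes in all). Recovered too were 180 of 194 in JVM2 (6 among 12939) and 290 of 368 differences between the lines (16 among 15118). Recovery of changes smaller than 2-fold was not tested.

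The alternatives were each library left out in turn, a block for the replicate number, library size or RLE scaling, no filter or 10 counts required of every library, DESeq2 1.42.0, edgeR's exact test, and a call by both tools. The last 2 and the 10-count minimum were run within the lines only. Gene positions, lengths and transcript sequences were those of GENCODE v44 (GRCh38, the build the authors aligned to). The genes and lists were chosen with earlier results of these data known. Named pathway genes were those past the threshold in both lines and, per line, the 5 with the largest change among those past it (average log2 CPM at or over 0). Of the B-cell markers, 4 are given singly, and 1 marker and the sum over the list are not reported here. *PGM1*, *MS4A1*, *PAX5*, *CD79A* and *CD22* were named outside this rule, after their values were seen. The 5 genes nearest in pattern needed one of 1 or more.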

Additional observations from a re-analysis of the deposited data

Results flagged for a closer look

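Dixon's rule for a sample that stands apart was not applied to these populations of 3 libraries each. The 2 libraries that stood apart by their mean chi-square per gene are named with the depths. For 16 of the glucuronidation and pathway genes described, the change in MEC1 minus that in JVM2 passed the threshold. The test was the single edgeR fit of all 12 libraries, with Benjamini-Hochberg adjustment over 15130 genes, of which 32.2% passed. The pathway genes were named for calls in both lines or for the largest changes in a line, so a high count follows from the selection. The difference did not pass for *UGT2B15*, *UGT8*, *UGP2*, *SLC35D1*, *UXS1*, *DSE*, *IDUA*, *PGM1* or *SLC35D2*. *CSGALNACT1* and *UGGT2* were not listed for JVM2 and so were not in the fit. Values below are on the log2 scale.

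Among the glucuronidation genes this difference was 0.46 for *UGT2B17* (adjusted *P* = 0.0082), 0.29 for *UGDH* (adjusted *P* = 0.0090) and 0.41 for *GUSB* (adjusted *P* = 0.0012). With any library left out it ranged from 0.40 to 0.60, from 0.23 to 0.36 and from 0.37 to 0.50, and the highest adjusted *P* was 0.038, for *UGDH*.

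Among users and makers of UDP-glucose it was -0.58 for *HK1* (adjusted *P* = 2.9e-06), -1.60 for *PGM2L1* (adjusted *P* = 1.4e-04), 3.21 for *PGM5* (adjusted *P* = 2.3e-04), 0.60 for *UGGT1* (adjusted *P* = 1.1e-06) and -0.72 for *UGCG* (adjusted *P* = 1.3e-06). *PGM5* had too few counts for a test within MEC1. The carrier *SLC35B1* differed by 0.86 (adjusted *P* = 2.5e-07).

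In glycosaminoglycan synthesis it was 2.20 for *XYLT1* (adjusted *P* = 5.1e-11), 1.26 for *EXT1* (adjusted *P* = 1.4e-08), 1.08 for *CHPF* (adjusted *P* = 1.7e-06), 0.70 for *CHPF2* (adjusted *P* = 4.6e-06) and 0.25 for *FAM20B* (adjusted *P* = 0.021). Among genes that form or break down free glucuronate it was 3.29 for *MIOX* (adjusted *P* = 1.2e-04) and -1.42 for *CRYL1* (adjusted *P* = 2.1e-07). *XYLT1*, *FAM20B* and *CRYL1* changed in the same direction in both lines and by different amounts, and *UGGT1*, *UGCG*, *SLC35B1*, *EXT1*, *CHPF*, *CHPF2* and *MIOX* in opposite directions. The part of the knock-down and of the antibiotics in these differences cannot be told apart.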

How the results depend on the processing

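The calls of the 8 genes did not depend on the settings tried. The same 6 genes were called in MEC1 and the same 1 in JVM2 under every alternative, and the same 3 for the difference between the lines under those run for it (RLE scaling, library size only, DESeq2, the block, no filter and each library left out), and in none of 421 repeats of a test or count did a value cross the threshold, a called value change sign or a count move beyond 1.5 times. Over the fits that lacked a library, *UGT2B17* ranged on the log2 scale from 0.89 to 0.99 in MEC1 and from 0.35 to 0.54 in JVM2 (highest adjusted *P* = 0.033), that of *UGDH* from 0.27 to 0.29, *GUSB* from 0.25 to 0.30 and *SLC35D1* from 0.14 to 0.17 in MEC1 (highest adjusted *P* for *SLC35D1* 0.038). The pathway genes called ranged from 27 to 31 in MEC1 and from 15 to 19 in JVM2. *UGP2* in MEC1 came closest to a change of call, with an adjusted *P* of 0.053 under library size only and a range up to 0.27 over the alternatives.

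Same-numbered replicates correlated at -0.0904, -0.0456 and 0.0677 in MEC1 and at 0.108, 0.136 and -0.0133 in JVM2 in their deviations, so the numbers were not taken to pair the libraries. With the replicate block, 6897 genes were called in MEC1 against 6909, 4236 in JVM2 against 3821 and 5052 for the difference against 4877, and 6, 1 and 3 of the glucuronidation genes.

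The exon length chosen moved 19 of 32 levels per kilobase by more than 1 SD, and the stretch length moved the share that *UGT2B17* has in common with *UGT2B15* from 22.9% at 50 bases to 15.33% at 75 and 10.58% at 100. The lower depth of JVM2 limits *UGT8* and *UGT2B15* there, and RNA levels say nothing of enzyme activity or of the amount of UDP-glucuronate.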

Other observations

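The genomic surroundings of the 8 genes were described by the genes tested within 5 Mb of each. In MEC1, the 42 neighbours of *GUSB* had a median log2 fold change of 0.16, with 14 higher and 4 lower, the 41 of *UGDH* a median of 0.12, with 14 higher and 10 lower, and the 32 of *UXS1* a median of 0.13, with 12 higher and 5 lower. The 34 neighbours of *SLC35D1*, the 53 of *UGP2*, the 20 of *UGT2B17* and the 31 of *UGT8* had medians of -0.0047, 0.0018, 0.0061 and 0.020. In JVM2 the 32 neighbours of *GUSB* had a median of 0.063, with 1 higher and 2 lower. The 28 of *UGDH* had a median of 0.089, with 11 higher and 5 lower, and the 23 of *UXS1* 0.097, with 6 higher and 2 lower. Over all genes tested, 20% were higher and 21.6% lower in MEC1, and 14.1% higher and 15.3% lower in JVM2. On chromosome 9 beyond 60 Mb, 337 of 471 tested genes were lower in MEC1-2B17 and 14 higher (median -0.39). Of the pathway genes, *UGCG*, *SLC35D2* and *PGM5* lie in that stretch. In MEC1 the log2 fold change of *UGCG* was -0.40 and that of *SLC35D2* 0.033 (edgeR adjusted *P* = 0.94). *PGM5* had too few counts for a test there. In JVM2 the same stretch had 43 genes higher and 38 lower of 360. What part these surroundings have in the changes of single genes was not tested.

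Of 5 hepatocyte markers, looked at because glucuronidation is best known from liver, *ALB* and *TTR* were in neither table. The list moved with the populations through *SERPINA1*, at 0.553 ± 0.138 CPM in MEC1-CTRL, 0.0825 ± 0.0666 in MEC1-2B17, 6.13 ± 0.442 in JVM2-CTRL and 2.20 ± 0.353 in JVM2-2B17 (SD, n = 3), with log2 fold changes of -2.70 and -1.46 (adjusted *P* = 8.5e-05 and 9.4e-05). The summed list stood at 0.526 to 0.755 CPM in MEC1-CTRL, 0.0888 to 0.221 CPM in MEC1-2B17, 5.68 to 6.76 CPM in JVM2-CTRL and 2.02 to 2.81 CPM in JVM2-2B17. Monocyte markers summed to at most 1.69 CPM in any library.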
